A study of Mus musculus with 6 samples.

Results

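The genes described here are 42 mouse genes of mitosis: cyclins, mitotic kinases, spindle checkpoint proteins, kinetochore and condensin subunits and the factors of chromosome separation and cell cleavage. They were chosen by name, and all 42 were found among the 25638 genes of the deposited expression table. The cells were OT-I cells, CD8+ T cells of wild-type genotype per the labels whose T cell receptor recognises an ovalbumin peptide, and every culture received that peptide for 48 hours. They were cultured with TANs (2 libraries), with TAMos (2 libraries) or with vehicle (2 libraries), and the activated T cells were then purified for RNA sequencing. Both sorts took CD11b+ cells: TANs were positive for Ly6G with low Ly6C, and TAMos were negative for Ly6G with high Ly6C. The donor organ of both was the spleen, not the tumour, of mice bearing LLC, a Lewis lung carcinoma. Whether the 2 libraries of a group stem from different cultures or different animals is stated nowhere in the sources used here, so the spread behind each p-value may be technical.

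Entry into mitosis is driven by CDK1 bound to cyclin A or cyclin B, with Polo-like and Aurora kinases acting beside it. The kinetochore, a protein assembly on each centromere, binds spindle microtubules, and the spindle checkpoint holds back the anaphase-promoting complex (APC/C) until all chromosomes are attached. Most genes of this group are transcribed mainly in G2 and M phase, and peptide-stimulated CD8+ T cells normally divide fast, so their transcripts are commonly read as marks of dividing cells. RNA of a whole population was measured: fewer cells of a type and less RNA per cell cannot be told apart.

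Levels are FPKM, reads or fragments per kilobase of gene and per M counted. They allow for gene length and for the total counted, but not for a change of composition between libraries. All FPKM of a library summed to 628881 and 628328 with TAN, 546324 and 548039 with TAMo and 630749 and 629901 with vehicle. The steps between low values gave 45 and 44.7 M counted units in the TAN libraries, 21.9 and 41.6 M in the TAMo libraries and 44.9 and 45.3 M in the vehicle libraries, and over 2 kb of transcript 1 unit corresponds to 0.011 to 0.0229 FPKM. Whether a unit is a read or a fragment, and the same in all libraries, is not known. Mitochondrial transcripts made up 8.07% and 8.21% of all FPKM with TAN, 1.20% and 1.32% with TAMo, and 8.15% and 8.34% with vehicle. The 8 T cell markers summed to 1353 to 1400 FPKM in all 6 libraries, although with TAMo 5 of the 8 were called higher and 3 lower than with vehicle. The 13 neutrophil markers were each under 1 FPKM in all libraries, with S100a8, S100a9, Ngp, Cxcr2, Mmp8 and Retnlg listed at 0. The 10 monocyte and macrophage markers summed to 6.19 and 4.82 FPKM with TAN, 12.1 and 17.3 FPKM with TAMo and 5.65 and 5.23 FPKM with vehicle. Of these 10, 7 stayed under 1 FPKM everywhere, and the 3 that were tested, Cd68, Cd14 and Ms4a6c, were all called higher with TAMo. The 4 dendritic cell markers summed to 2.21 and 2.81 FPKM with TAN, 7.35 and 6.86 FPKM with TAMo and 3.23 and 2.81 FPKM with vehicle. The 4 B cell markers summed to 4.58 to 7.47 FPKM over the 6 libraries and the 5 erythroid markers to at most 0.280 FPKM. The part of the mitochondrial share and of these markers in the results was not tested.

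After co-culture with TAMos, transcripts of all 42 mitotic genes were lower than with vehicle, and 38 of them (90.5%) kept less than 10% of their vehicle level. The sum of their FPKM was 174 in each TAMo library, 2962 and 2968 in the TAN libraries and 2918 and 2901 in the vehicle libraries, so that TAMo cells held 5.98% and TAN cells 102% of the vehicle mean. A gene of the group had a median level of 1.60 FPKM with TAMo, 48.8 FPKM with TAN and 44.5 FPKM with vehicle. The 42 genes passed the test as lower with TAMo (limma on log2(FPKM + 1), Benjamini-Hochberg adjusted p under 0.05 over 10727 genes), whereas 40.7% of all genes tested were lower and 45.7% were higher. Their median log2 change was -3.97 beside 0.057 over all genes, and the highest adjusted p among them was 0.000125. In all 42 genes both TAMo libraries lay below the 4 others, as in 41% of all genes tested. A TAMo mean under 10% of the vehicle mean was seen in 3.51% of the 6560 genes with at least 10 FPKM with vehicle. When each library was rescaled to one sum of FPKM, the median of all genes moved to 0.24 and that of the 42 genes to -3.80, and all 42 were still called lower.

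**Figure D1:**
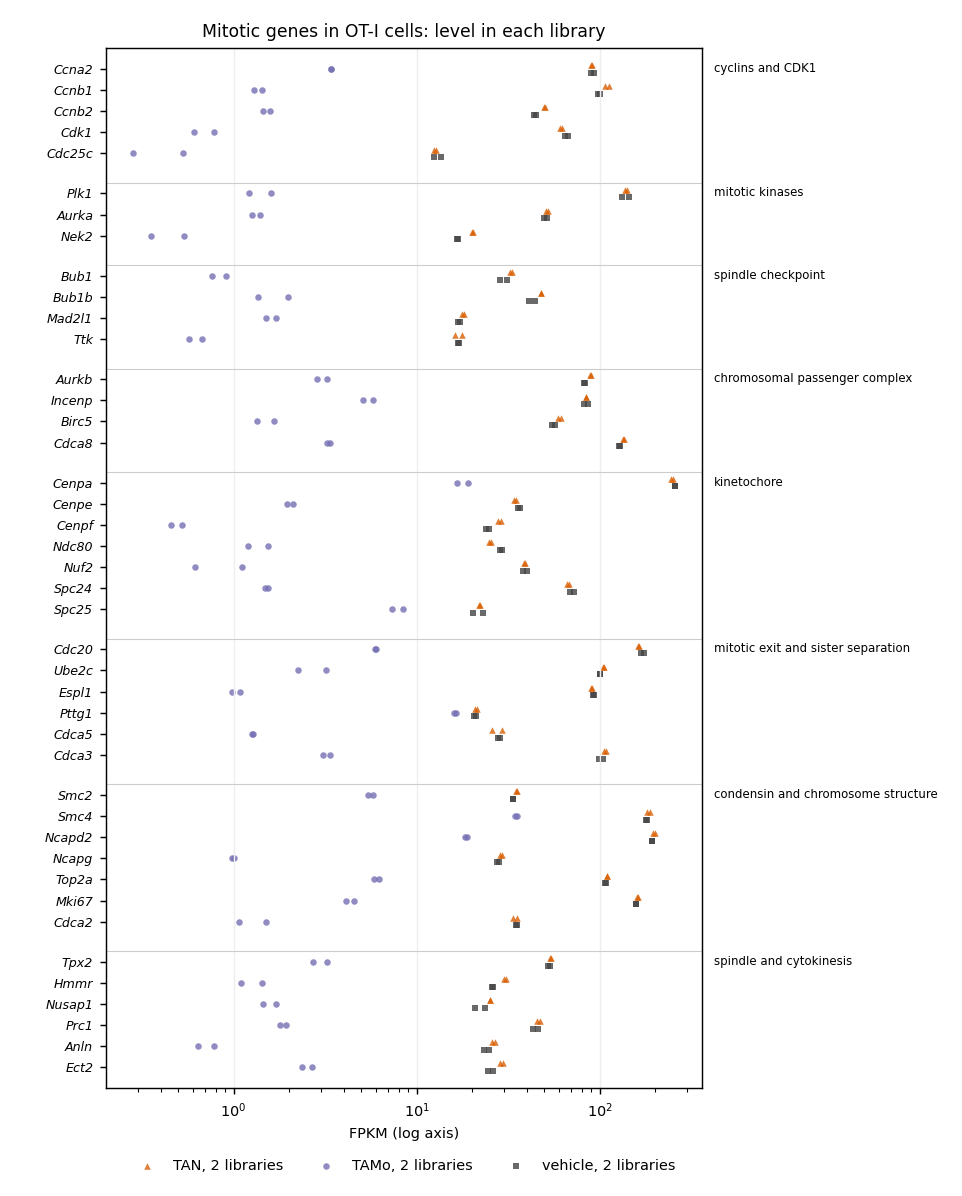
Level of each of the 42 genes in each library, in FPKM on a log axis, grouped by role; triangles are TAN, circles TAMo and squares vehicle libraries, 2 of each. The TAMo circles lie to the left of the other 4 points in every row, closest for Pttg1 (16.1 and 16.5 FPKM) and Spc25 (7.32 and 8.46 FPKM), while TAN and vehicle points lie close together.

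Promoters are shown because the 42 genes moved together and carry, as a class, a known arrangement of elements. Genes of G2 and M phase are classically bound by the MuvB complex at the cell cycle homology region (CHR), and many hold CCAAT boxes, bound by the factor NF-Y. A RefSeq promoter, from 250 bases before to 50 bases after the annotated start on GRCm38.p6, was found for 34 of the 42 genes, 36 promoters in all. A CHR, searched as TTTGAA or TTCGAA on either strand, was present in 28 of 36 (77.8%), against 13.9% of the 10638 promoters of tested genes and 19.2% of all 32851. A CCAAT box on either strand was present in 28 of 36 (77.8%), against 38.3% and 37.4%. Both were present in 69.4%, against 5.9% and 7.52%. By gene, 26 of the 34 held a CHR and 26 a CCAAT box, since Prc1 and Ect2 each had overlapping promoters. Among the other genes of the mitotic pathway 26.7% held both, and among DNA replication genes 21.4%. These are counts of letters in a window and not binding sites, and no test was run on them.

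Of the members with both elements, the 4 with the largest fall in log2(FPKM + 1) were Plk1 (chr7:122159185-122159484, plus strand), Espl1 (chr15:102296043-102296342, plus strand), Cdk1 (chr10:69352863-69353162, minus strand) and Cdca8 (chr4:124936868-124937167, minus strand). They are set beside Spc25 (chr2:69206164-69206463, minus strand) and Pttg1 (chr11:43425932-43426231, minus strand), the 2 genes with the smallest fall, chosen after their values were seen. Each is printed 5′ to 3′ on the strand of the gene, with CHR and CCAAT matches in capitals. By percent of the vehicle mean Cenpf, not printed, which also held both elements, fell further than Cdca8 (2.002% against 2.58%).
Plk1: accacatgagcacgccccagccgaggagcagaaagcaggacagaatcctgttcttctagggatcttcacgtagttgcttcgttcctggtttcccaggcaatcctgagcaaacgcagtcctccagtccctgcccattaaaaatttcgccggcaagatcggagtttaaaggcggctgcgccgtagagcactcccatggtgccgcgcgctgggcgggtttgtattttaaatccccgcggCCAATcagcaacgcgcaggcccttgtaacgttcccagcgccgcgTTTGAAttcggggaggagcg
Espl1: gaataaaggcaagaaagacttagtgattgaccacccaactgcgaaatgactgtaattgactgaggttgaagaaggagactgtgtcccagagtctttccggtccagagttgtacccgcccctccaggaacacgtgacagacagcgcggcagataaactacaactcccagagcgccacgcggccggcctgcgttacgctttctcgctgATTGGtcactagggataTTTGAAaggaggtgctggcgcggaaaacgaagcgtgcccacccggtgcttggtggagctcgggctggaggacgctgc
Cdk1: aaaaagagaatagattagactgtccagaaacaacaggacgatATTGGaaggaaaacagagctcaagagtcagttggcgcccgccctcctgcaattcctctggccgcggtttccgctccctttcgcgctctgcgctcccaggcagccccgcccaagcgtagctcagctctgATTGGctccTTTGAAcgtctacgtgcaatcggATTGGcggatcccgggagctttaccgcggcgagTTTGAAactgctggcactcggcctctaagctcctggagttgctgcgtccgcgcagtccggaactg
Cdca8: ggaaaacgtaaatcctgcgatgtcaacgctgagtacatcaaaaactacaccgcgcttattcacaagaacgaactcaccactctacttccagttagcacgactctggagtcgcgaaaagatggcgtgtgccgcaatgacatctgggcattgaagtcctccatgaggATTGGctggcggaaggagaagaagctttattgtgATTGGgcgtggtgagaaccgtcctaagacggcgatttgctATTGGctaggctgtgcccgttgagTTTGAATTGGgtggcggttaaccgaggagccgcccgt
Spc25: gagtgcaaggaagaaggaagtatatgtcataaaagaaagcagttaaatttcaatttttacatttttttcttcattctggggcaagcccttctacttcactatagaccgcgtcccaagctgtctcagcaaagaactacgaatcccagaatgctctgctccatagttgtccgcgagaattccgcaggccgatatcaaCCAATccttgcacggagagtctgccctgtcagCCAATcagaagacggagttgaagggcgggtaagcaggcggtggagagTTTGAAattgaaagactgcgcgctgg
Pttg1: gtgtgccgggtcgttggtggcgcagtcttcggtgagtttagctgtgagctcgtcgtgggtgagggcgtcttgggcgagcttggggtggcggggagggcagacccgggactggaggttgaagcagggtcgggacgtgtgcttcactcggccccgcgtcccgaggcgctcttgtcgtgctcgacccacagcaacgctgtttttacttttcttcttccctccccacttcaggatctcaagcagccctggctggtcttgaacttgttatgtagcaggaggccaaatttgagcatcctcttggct
Plk1 and Espl1 each held 1 CHR and 1 CCAAT box, Cdk1 2 CHR and 3 CCAAT boxes, and Cdca8 1 CHR and 4 CCAAT boxes, of which the last shares 1 base with the CHR. Spc25, which kept 36.3% of its vehicle level, held 1 CHR and 2 CCAAT boxes, so its letters were of the same kind as those of the deeply falling genes. Pttg1 held neither in this window. The windows of Pttg1 and Cdca8 lie wholly inside their GENCODE genes (43420250 to 43426251 and 124918465 to 124939311). The sequence upstream of these genes was not searched. Neither was found in Birc5, Nuf2, Nusap1 or Mad2l1 either, which kept 2.68%, 2.21%, 7.09% and 9.42%, and Ccnb1, among the deepest falls, held 2 CCAAT boxes and no CHR. The annotated starts of Birc5 and Mad2l1 lay in no GENCODE transcript of the gene. The Mad2l1 window (66534971 to 66535270) ends before the GENCODE start of the gene (66535390), so the bases next to that start were not searched.

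**Figure D2:**
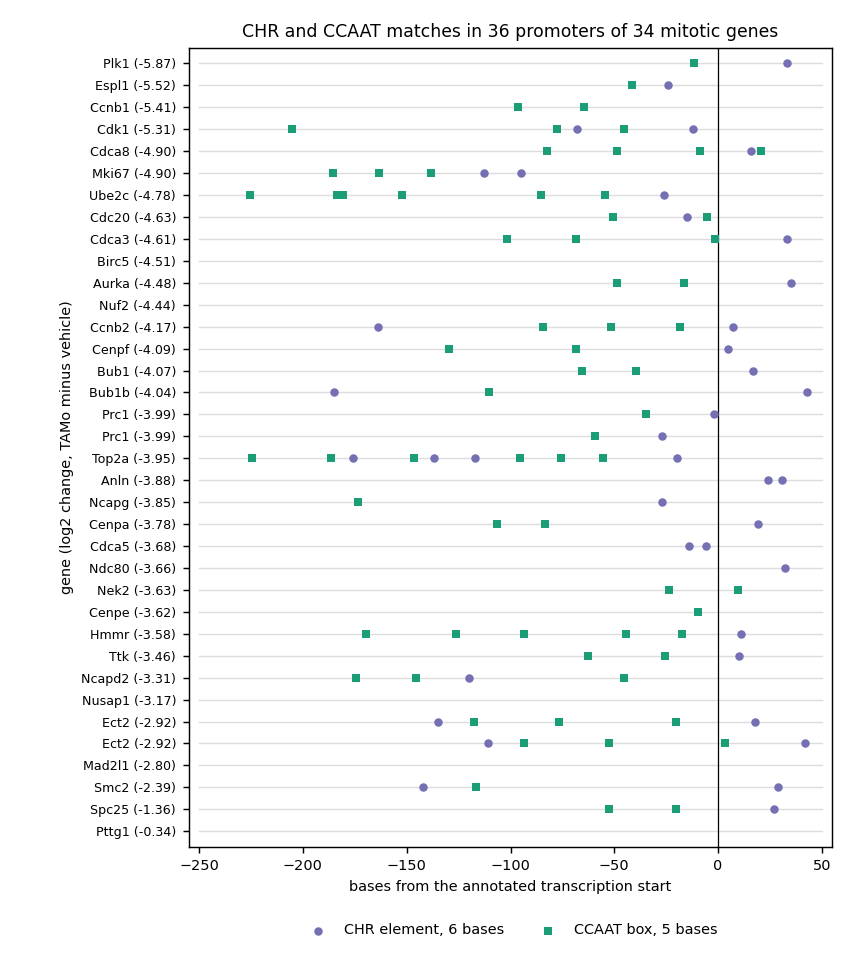
Position of CHR (circles) and CCAAT (squares) matches in 36 promoters of 34 genes, in bases from the annotated transcription start, ordered by the log2 change with TAMo against vehicle given beside each name. Of 40 CHR matches 28 begin within 50 bases of the start, and of 68 CCAAT matches 51 begin 150 to 11 bases before it. The overlapping promoters of Prc1 and Ect2 hold the same sites, which are counted again in these numbers. Of the 34 genes 5, Pttg1 at the bottom among them, have no match in the window searched, which for Pttg1 lies inside the gene.

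Among the cyclins and CDK1, the 5 genes kept between 1.05% and 3.71% of their vehicle mean with TAMo. Cdk1, the kinase that drives mitotic entry (GRCm38 chromosome 10, 69335146 to 69352938), had 0.606 and 0.785 FPKM with TAMo, 62.7 and 60.8 FPKM with TAN and 67.6 and 64.7 FPKM with vehicle. Its log2 change was -5.31 ± 0.060 (standard error; limma adjusted p = 7.05e-10). Both TAMo libraries were far below all others, whose values lay within a narrow band. Ccnb1, cyclin B1, its main mitotic partner (chromosome 13, 100778650 to 100786570), had 1.30 and 1.44 FPKM with TAMo, 107.7 and 112 FPKM with TAN and 100.5 and 98.3 FPKM with vehicle. Several annotated copies of this gene can share its reads: the closest matched 51.9% of its transcript at 95% identity or more. Ccna2, cyclin A2, which acts from S phase to early mitosis, had 3.40 and 3.39 FPKM with TAMo, 90.8 and 89.5 FPKM with TAN and 93.2 and 89.9 FPKM with vehicle. The listed fall of cyclin A2 was less deep than that of cyclin B1. The ratio of Ccna2 to Ccnb1 was 2.62 and 2.36 with TAMo, 0.843 and 0.799 with TAN and 0.927 and 0.914 with vehicle. Exons of Exosc9 on the opposite strand overlap 12.5% of the exonic bases of Ccna2, and their part in this difference was not tested. Ccnb2, a second B-type cyclin, kept 3.42% of its vehicle mean. Cdc25c, a phosphatase that activates CDK1, was the lowest gene of the group in vehicle cells, with 0.282 and 0.532 FPKM with TAMo, 12.5 and 12.7 FPKM with TAN and 12.5 and 13.6 FPKM with vehicle.

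The 3 kinases grouped as mitotic kinases kept 1.01% to 2.64%. Plk1, Polo-like kinase 1 (chromosome 7, 122159439 to 122169873), showed the largest fall of the 42 genes: 1.21 and 1.60 FPKM with TAMo, 141 and 138 FPKM with TAN and 145 and 133.5 FPKM with vehicle. Its log2 change with TAMo was -5.87 ± 0.077 (limma adjusted p = 1.24e-09). Aurka, Aurora kinase A of centrosomes and spindle poles, had 1.40 and 1.26 FPKM with TAMo, 52.6 and 50.8 FPKM with TAN and 51.7 and 50.04 FPKM with vehicle. Nek2, a kinase of centrosome separation, had 0.354 and 0.535 FPKM with TAMo, 20.3 and 19.99 FPKM with TAN and 16.9 and 16.7 FPKM with vehicle. In all 3 the groups with and without TAMo were wide apart, and in Nek2 alone of the 3 both TAN libraries also lay above both vehicle libraries.

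Of the 4 spindle checkpoint genes, Bub1 kept 2.80%, Ttk (the kinase MPS1) 3.69%, Bub1b (BubR1) 3.91% and Mad2l1 9.42% of the vehicle mean. Mad2l1 encodes MAD2, the protein that captures the APC/C activator CDC20 at unattached kinetochores (chromosome 6, 66535390 to 66547220). It had 1.51 and 1.71 FPKM with TAMo, 17.8 and 18.2 FPKM with TAN and 17.4 and 16.9 FPKM with vehicle, a log2 change with TAMo of -2.80 ± 0.061 (limma adjusted p = 9.49e-09). Bub1, a kinase that recruits checkpoint proteins to kinetochores, had 0.907 and 0.764 FPKM with TAMo, 32.4 and 33.3 FPKM with TAN and 28.6 and 31.2 FPKM with vehicle. Mad2l1 stood below Bub1 in 4 libraries and above it in both TAMo libraries, with ratios of Mad2l1 to Bub1 of 1.67 and 2.24 with TAMo, 0.548 and 0.545 with TAN and 0.608 and 0.541 with vehicle.

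The chromosomal passenger complex consists of the kinase Aurora B (Aurkb), its scaffold INCENP (Incenp), survivin (Birc5) and borealin (Cdca8), and corrects faulty attachments of microtubules. Cdca8 (chromosome 4, 124918465 to 124939311) had 3.37 and 3.25 FPKM with TAMo, 134.6 and 135.7 FPKM with TAN and 127 and 129 FPKM with vehicle. Its log2 change was -4.90 ± 0.033, with the smallest adjusted p of the 42 genes (limma adjusted p = 1.98e-10). Aurkb had 2.87 and 3.25 FPKM with TAMo, 89.6 and 88.3 FPKM with TAN and 83.2 and 82.6 FPKM with vehicle. The scaffold fell less: Incenp had 5.11 and 5.81 FPKM with TAMo, 84.8 and 84.8 FPKM with TAN and 86.9 and 82.6 FPKM with vehicle. Their levels were about equal in TAN and vehicle cells, and the ratio of Incenp to Aurkb was 1.78 and 1.79 with TAMo, 0.947 and 0.96 with TAN and 1.04 and 1 with vehicle. Birc5 kept 2.68% and Cdca8 2.58% of the vehicle mean, both less than the 3.69% of Aurkb.

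The 7 kinetochore genes kept between 2.002% and 36.3%. Cenpa, the histone H3 variant that marks centromeres (chromosome 5, 30666777 to 30674830), had the highest level of the 42 genes in TAN and vehicle cells, with 19.1 and 16.7 FPKM with TAMo, 246 and 252 FPKM with TAN and 258 and 259 FPKM with vehicle. Cenpf, a large protein of the outer kinetochore, had 0.520 and 0.458 FPKM with TAMo, 28.8 and 28.1 FPKM with TAN and 23.9 and 24.9 FPKM with vehicle. Cenpe, a kinesin that moves chromosomes to the spindle equator, kept 5.59% of its vehicle mean. The NDC80 complex, which makes the main contact with microtubules, has 4 subunits, and 3 of them kept less than 5%: Spc24 kept 2.14%, Nuf2 2.21% and Ndc80 4.74%. Nuf2 differed between the TAMo libraries, at 1.11 and 0.614 FPKM. The subunit Spc25 (chromosome 2, 69193895 to 69206194) had 7.32 and 8.46 FPKM with TAMo, 22.2 and 21.9 FPKM with TAN and 20.3 and 23.2 FPKM with vehicle. That is 36.3% of the vehicle mean and a log2 change of -1.36 ± 0.082 (limma adjusted p = 2.05e-06), so Spc25 was lower in both TAMo libraries, but less so than its partners. The ratio of Spc25 to Ndc80 was 6.09 and 5.50 with TAMo, 0.897 and 0.858 with TAN and 0.707 and 0.796 with vehicle.

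The genes of mitotic exit and sister chromatid separation included one of the deepest falls of the group and the smallest. Espl1, separase, the protease that cuts cohesin at anaphase (chromosome 15, 102296266 to 102324357), had 0.984 and 1.09 FPKM with TAMo, 91.2 and 89.6 FPKM with TAN and 93.4 and 91.8 FPKM with vehicle, a log2 change with TAMo of -5.52 ± 0.042 (limma adjusted p = 2.42e-10). Pttg1, securin, the inhibitor that holds separase inactive until anaphase (chromosome 11, 43420250 to 43426251), had 16.1 and 16.5 FPKM with TAMo, 21.3 and 20.9 FPKM with TAN and 21.2 and 20.7 FPKM with vehicle. It kept 77.8% of its vehicle mean, a log2 change of -0.34 ± 0.042 (limma adjusted p = 0.000125), the smallest fall of the 42 genes. After rescaling of the libraries to one sum its log2 change was -0.15, still called (adjusted p = 0.0104). The ratio of Pttg1 to Espl1 was 16.3 and 15.1 with TAMo, 0.234 and 0.233 with TAN and 0.227 and 0.225 with vehicle: the inhibitor was the lower of the pair in 4 libraries and the higher one in both TAMo libraries. No annotated gene shares exon bases with Pttg1 or Spc25, and no other transcript matched a stretch of at least 100 bases of either at 95% identity or more. Cdc20, the mitotic activator of the APC/C, had 6.02 and 5.896 FPKM with TAMo, 164 and 162 FPKM with TAN and 175 and 167.5 FPKM with vehicle. Ube2c, the ubiquitin-conjugating enzyme of the APC/C, kept 2.72%, Cdca5 (sororin, a protector of cohesin) 4.53% and Cdca3, a factor of mitotic entry, 3.15%.

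Of the condensin and chromosome structure genes, Smc2 and Smc4 kept more than the other 5. They encode the ATPase core that condensin I and condensin II share. Smc4 (chromosome 3, 69004738 to 69034623) had 35.3 and 34.4 FPKM with TAMo, 182 and 190 FPKM with TAN and 180 and 183 FPKM with vehicle, and was the highest of the 42 genes in TAMo libraries. Smc2 (chromosome 4, 52439243 to 52488260) had 5.80 and 5.40 FPKM with TAMo, 34.8 and 35.2 FPKM with TAN and 33.6 and 33.7 FPKM with vehicle. The falls of the pair were similar, to 19.2% and 16.6% of vehicle, with log2 changes of -2.35 ± 0.032 and -2.39 ± 0.046 (limma adjusted p = 1.30e-09 and 5.24e-09). The subunits particular to condensin I fell further: Ncapd2 kept 9.63% and Ncapg 3.58%. The ratio of Smc4 to Ncapg was 35.8 and 34 with TAMo, 6.36 and 6.49 with TAN and 6.56 and 6.45 with vehicle. Top2a, the DNA topoisomerase that untangles chromosomes, kept 5.59%, Mki67, the Ki-67 protein that coats mitotic chromosomes, 2.74%, and Cdca2, which brings the phosphatase PP1 to chromatin, 3.64%.

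The 6 spindle and cytokinesis genes kept 2.95% to 9.86%. Anln, anillin of the cleavage furrow, had 0.641 and 0.786 FPKM with TAMo, 25.9 and 26.7 FPKM with TAN and 24.96 and 23.4 FPKM with vehicle. Ect2, the exchange factor that activates RhoA at the furrow, had 2.35 and 2.67 FPKM with TAMo, 29.7 and 28.5 FPKM with TAN and 24.7 and 26.3 FPKM with vehicle. By percent of the vehicle mean these were the deepest and the shallowest fall of the set, and in both genes the TAMo libraries lay far below the others. Prc1, which bundles the midzone of the anaphase spindle, kept 4.18%, Hmmr, a microtubule-binding protein of spindle poles, 4.87%, Tpx2, the activator of Aurora A, 5.63% and Nusap1, a microtubule-bundling protein, 7.09%. Whether the counting used strand is not stated, and exons of a gene on the opposite strand cover 22.8% of the exonic bases of Ube2c, 13.4% of Ncapg, 12.7% of Cdc25c, 12.5% of Ccna2 and 11.1% of Prc1, the largest such overlaps among the 42 genes. Reads there cannot be told apart. The partner of Ube2c, Tnnc2, was listed at 0 in every library. The partners of Ccna2 (Exosc9), Prc1 (Rccd1) and Ncapg (Lcorl) reached up to 52.2, 11.1 and 5.3 FPKM. Their part in the low TAMo values of these genes was not tested.

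**Figure D3:**
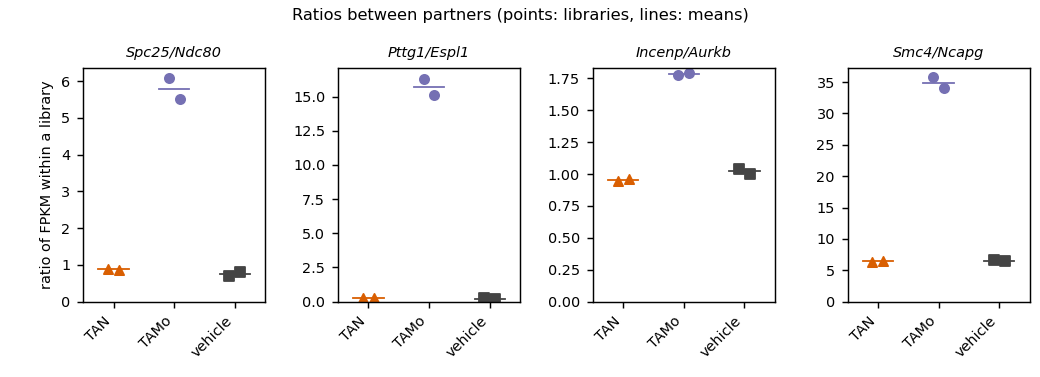
Ratio of the FPKM of a pair of partners within each library, on linear axes from 0, for Spc25 over Ndc80, Pttg1 over Espl1, Incenp over Aurkb and Smc4 over Ncapg; points are libraries and short lines group means. The TAMo points are the highest in all 4 panels, for example 16.3 and 15.1 for Pttg1 over Espl1 against 0.227 and 0.225 with vehicle. With 2 libraries a group the ratios were not tested.

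A further 108 genes of mitosis were listed beside the 42. With TAMo 85 of them were lower, 14 higher and 9 not called, with a median log2 change of -1.60. Of all genes tested 40.7% were lower and 45.7% higher. Of 34 other kinetochore and checkpoint genes 33 were lower (median log2 change -2.55), of 21 other spindle and cytokinesis genes 20 (median -2.59), of 13 other genes of the CDK1 switch 12 (median -2.36), and of 4 other condensin subunits all 4 (median -2.37). The centromere protein gene Cenph kept 3.74% and Kntc1, which brings dynein to kinetochores, 5.16%. Pkmyt1, a kinase that inhibits CDK1, kept 2.69%, Cks1b, a small CDK-binding protein, 3.62%, and Fbxo5, an inhibitor of the APC/C, 3.74%. Cep55, which acts in the final cut between daughter cells, kept 3.11% and Racgap1, the partner of Ect2 at the furrow, 4.47%.

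Some inner kinetochore genes lay near their vehicle level. Cenpc1 and Cenpt, which link centromeric chromatin to the NDC80 complex, kept 84.5% each (log2 changes -0.22 ± 0.052 and -0.24 ± 0.045, limma adjusted p = 0.00450 and 0.00157). Neither passed the test after rescaling to one sum (adjusted p = 0.529 and 0.436). The condensin II subunits Ncaph2 and Ncapd3 kept 55.7% and 38.2%, against 6.36% for the condensin I subunit Ncaph and 7.26% for the condensin II subunit Ncapg2. The ratio of Ncaph2 to Ncapg was 49.2 and 47 with TAMo, 2.98 and 2.86 with TAN and 3.16 and 3.02 with vehicle. Opposite-strand exons of Sco2, listed at 0, and of Tymp, with 0.569 to 1.46 FPKM, overlap those of Ncaph2.

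Complexes that also act outside mitosis had no common direction. Of all genes tested 45.7% were higher and 40.7% lower (53.7% and 33.7% after rescaling to one sum), so mixed directions are not particular to these complexes. Of 14 core subunits of the APC/C, 2 were higher, 8 lower and 4 not called (median log2 change -0.21, and -0.0085 after rescaling to one sum, with 5 higher and 6 lower). Anapc5 fell to 79.8 ± 0.430 FPKM with TAMo, against 243.8 ± 4.15 FPKM with vehicle (SD, n = 2), or 32.7%, while Anapc1 and Anapc7 were at 102% and 103% and did not pass the test (both were called higher after rescaling to one sum). Of 10 cohesin genes 5 were lower and 5 higher under every scaling tried: Smc1a of the ring kept 29.2% and Smc3 55.5%, whereas Nipbl, the loader of cohesin, stood at 306%, with 37.7 and 38.6 FPKM with TAMo, 12.4 and 12.3 FPKM with TAN and 12.2 and 12.8 FPKM with vehicle. Of 12 subunits of the phosphatases PP1 and PP2A, 4 were higher and 3 lower (median 0.055; 8 and 2 after rescaling to one sum). By comparison, all 16 DNA replication genes were lower, with a median of -3.76, close to that of the 42 mitotic genes. Cdt1, which licenses origins, kept 2.03%, thymidine kinase Tk1 2.73% and the helicase subunit Mcm5 3.34%.

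In the kinetochore, CDK1 and spindle lists 1 gene each was called higher, and these 3 are named after their values were seen. Gtse1, a microtubule-tracking protein of G2 and M phase (chromosome 15), had 110.4 and 109 FPKM with TAMo, 36.03 and 35.5 FPKM with TAN and 35.6 and 33.5 FPKM with vehicle. Its log2 change was 1.64 ± 0.037 (limma adjusted p = 1.16e-08), at 318% of the vehicle mean. Ensa, an inhibitor of PP2A in mitosis, was at 212%, with 84.7 and 81.8 FPKM with TAMo, 43.1 and 39.9 FPKM with TAN and 39.03 and 39.5 FPKM with vehicle. Zwint, a linker of the outer kinetochore, was at 122%, with 65.3 and 69.7 FPKM with TAMo, 53.1 and 51.3 FPKM with TAN and 54.9 and 55.98 FPKM with vehicle (limma adjusted p = 0.000328). All 3 were higher in both TAMo libraries than in the other 4, and were called higher under every scaling tried.

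**Figure D4:**
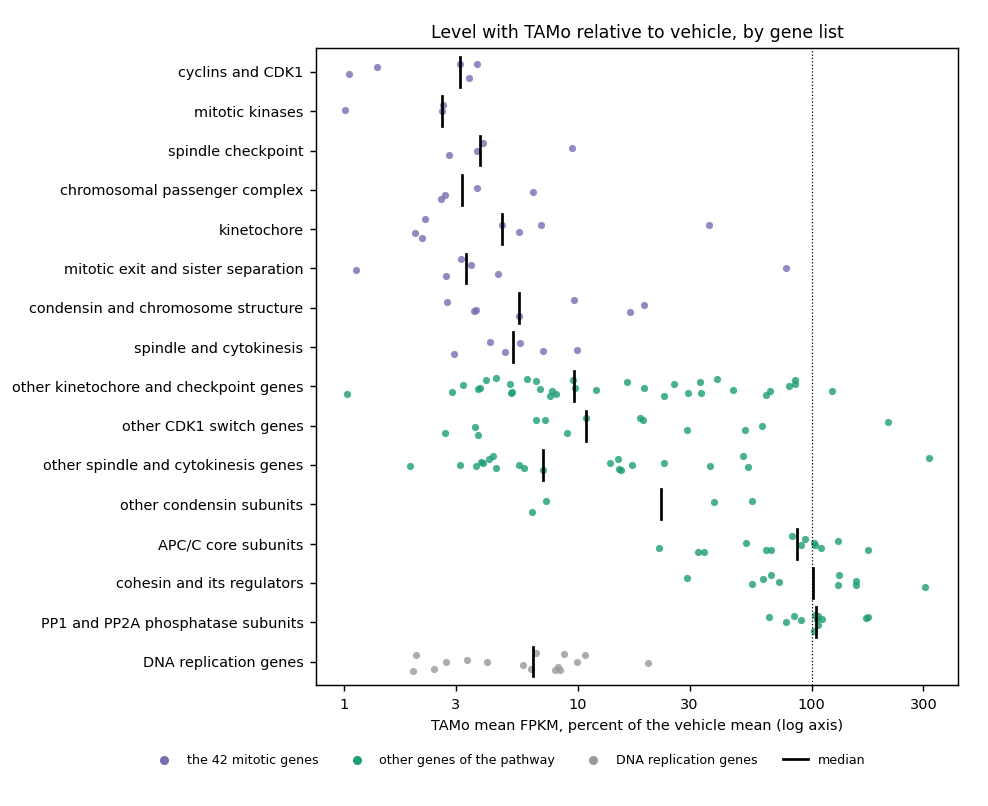
TAMo mean as a percent of the vehicle mean on a log axis, 1 point per gene, with the median of each list as a bar and the vehicle level as a dotted line at 100%. The 8 roles of the 42 genes have medians of 2.61% to 5.59%, with Pttg1 at 77.8% and Spc25 at 36.3% to the right, and APC/C, cohesin and phosphatase subunits scatter around 100%.

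After co-culture with TANs the mitotic genes stayed close to vehicle. Cenpf and Ccnb2 were called higher and no gene was called lower, 4.76% and 0% of the 42, against 9.37% higher and 11% lower of all genes tested. The log2 changes lay between -0.19 (Ndc80) and 0.245 (Nek2), with a median of 0.033 beside -0.0050 over all genes. Cenpf had 28.8 and 28.1 FPKM with TAN and 23.9 and 24.9 FPKM with vehicle, a log2 change of 0.21 ± 0.056 (limma adjusted p = 0.0386). Ccnb2 had 50.2 and 49.4 FPKM with TAN and 45.1 and 43.6 FPKM with vehicle, a log2 change of 0.16 ± 0.047 (limma adjusted p = 0.0494). Both were higher in both TAN libraries, at 116.5% and 112% of the vehicle mean. The calls were near the threshold: over 16 alternative settings the call of Cenpf was lost in 8 (adjusted p up to 0.183) and that of Ccnb2 in 9 (up to 0.216). With any 1 TAN or vehicle library left out, the median log2 change of the 42 genes was 0.032 to 0.041. With a TAMo library left out it stayed at 0.033, since TAMo enters this comparison only through the shared error.

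The libraries of TAN and vehicle did not overlap in 28 of the 42 genes (66.7%), a share near the 64.1% of all genes tested. Both TAN libraries lay above both vehicle libraries in 21 of the 42 genes (50%, against 30.8% of all genes tested) and below them in 7 (16.7%, against 33.3%). Of the condensin and chromosome structure genes 5 of 7 lay above, of the spindle checkpoint genes 3 of 4 and of the passenger complex genes 3 of 4, with none below. Of the cyclins and CDK1 2 lay above and 1 below, and of the mitotic exit genes 2 and 2. Among the spindle and cytokinesis genes 4 of 6 lay above and none below, with Hmmr at 29.9 and 30.7 FPKM with TAN and 26.1 and 25.9 FPKM with vehicle (log2 change 0.21 ± 0.074, limma adjusted p = 0.0851). Ect2 had a log2 change of 0.18 ± 0.064 (limma adjusted p = 0.0854). Among the 7 kinetochore genes 4 lay below, Cenpa, Cenpe, Ndc80 and Spc24, and Cenpf alone lay above. Ndc80, the namesake of its complex, had 24.8 and 25.5 FPKM with TAN and 28.7 and 29.2 FPKM with vehicle (log2 change -0.19 ± 0.073, limma adjusted p = 0.108). Nek2 had the largest log2 change, 0.245 ± 0.074 (limma adjusted p = 0.0574), and Ccnb1 followed Ccnb2 among the cyclins with 0.14 ± 0.044 (limma adjusted p = 0.0647). None of these passed the test, which does not show that the levels were equal: the log2 standard errors of the 42 genes ran from 0.029 (Ncapd2) to 0.11 (Nuf2).

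**Figure D5:**
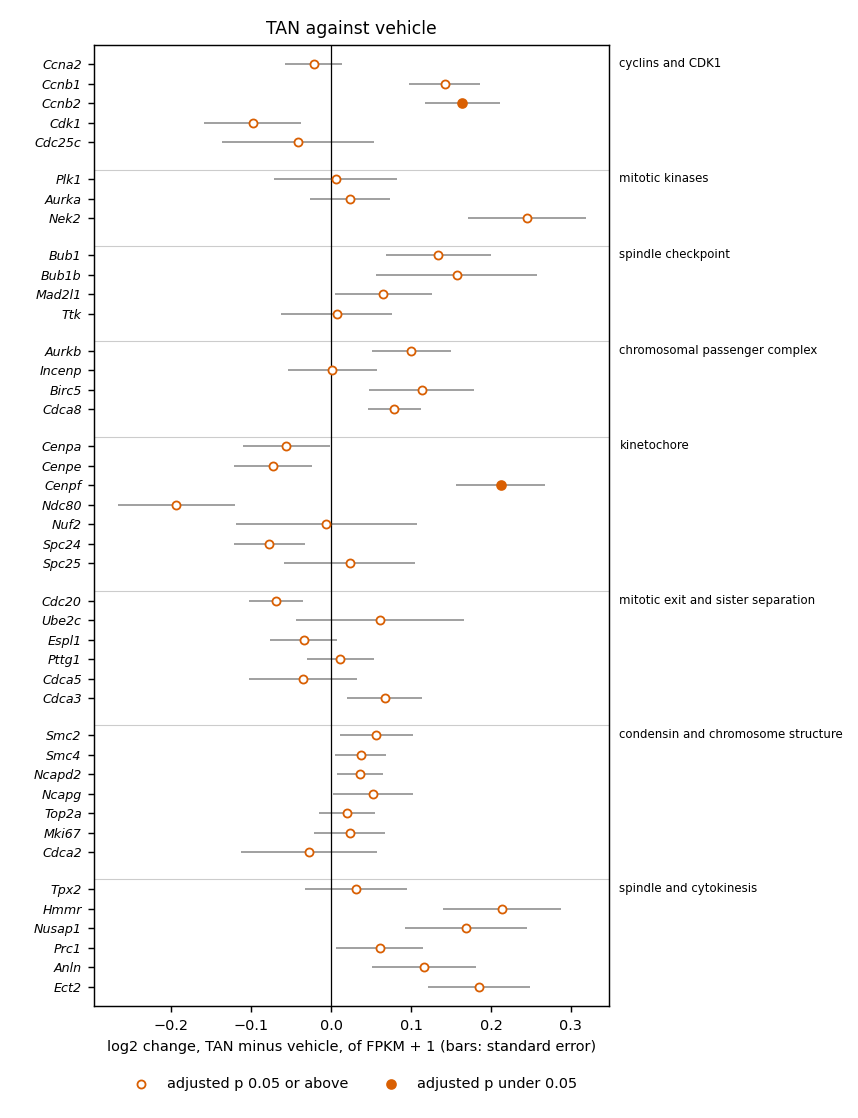
Log2 change of FPKM + 1, TAN minus vehicle, for the 42 genes by role, with standard errors from the fit over all 6 libraries; filled circles have an adjusted p under 0.05. Cenpf (0.21) and Ccnb2 (0.16) are the filled ones, and all points lie between -0.19 and 0.245.

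Of the 108 other genes of the pathway, 6 were higher with TAN, 5 lower and 97 not called, with a median log2 change of 0.018. Of all genes tested 9.37% were higher and 11% lower. Racgap1 had 164 and 161 FPKM with TAN and 146 and 142 FPKM with vehicle (log2 change 0.17 ± 0.033, limma adjusted p = 0.0142). Cks1b was also higher, with a log2 change of 0.20 ± 0.045 (limma adjusted p = 0.0254), and Pkmyt1 was lower, with -0.20 ± 0.048 (limma adjusted p = 0.0265). The 7 lists of these 108 genes held no more than 2 genes called in either direction. Of the 16 DNA replication genes none was higher and 3 were lower with TAN, with a median log2 change of 0.029 (limma adjusted p = 0.0212 for Mcm2, 0.0186 for Cdc6 and 0.0470 for Cdt1, named after their values were seen). Cdc6, which loads the replicative helicase, had 30.3 and 29.5 FPKM with TAN and 35.9 and 34.9 FPKM with vehicle.

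Set directly against TAMo, co-culture with TANs left all 42 genes higher (40.6% of all genes tested were higher), with log2 changes of 0.35 (Pttg1) to 5.87 (Plk1) and a median of 3.98. Its TAN and TAMo libraries are the ones used in the comparisons with vehicle, so it is no independent measurement.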

How the data were processed

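Expression was measured by RNA sequencing of mouse OT-I cells after co-culture with TANs, TAMos or vehicle, 2 libraries each. The deposited values are FPKM per gene, made by the authors. CASAVA, HISAT2 2.0.5, featureCounts 1.5.0-p3 and mm10 are named in the submitters' processing notes, without roles; the strand setting and gene lengths are not stated. Because FPKM divides by a library's total, a change of abundant transcripts moves all other values. Every value column matched 1 sample.

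Of 25638 genes, the 10727 that reached 1 FPKM in 2 or more of the 6 libraries were tested as log2(FPKM + 1), a scale that understates changes of low genes, with limma 3.58.1 in R 4.3.3 (moderated statistics, prior variance following the mean level). One model covered all 6 libraries (residual degrees of freedom 3, prior 4.07). The two-sided p-values were Benjamini-Hochberg adjusted over all genes, and the script was tested on simulated data. A percent of vehicle is a ratio of mean FPKM without pseudocount, and a value after ± is a standard error for log2 changes and an SD for FPKM.

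Depth was the smallest total, searched from 15 to 60 M, that made low values of 7708 single-transcript genes whole numbers: 98.2% to 99% were whole within 0.1. Whether a unit is a read or a fragment is not known. Replicates differed by more than counting noise (mean chi-square per degree of freedom 2.04 for TAN, 10.3 for TAMo and 2.46 for vehicle), and none were identical. The median gene lay at 1.53, 1.46 and 1.64 times the median of counting noise, so the high TAMo mean came from a part of the genes. For this, the totals of all libraries but TAMo replicate 1 were taken as single reads and turned into pairs, which is an assumption. Coordinates and overlaps are from GENCODE mouse release 21 on GRCm38, the assembly of mm10, and near-identical transcripts from blastn 2.17.0. RefSeq promoters matched 34 members, and in 26 of 36 the annotated start lay within a GENCODE transcript of the gene. Among the printed promoters this was not so for Plk1 and Spc25.

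The members and all lists were chosen with earlier results of these data known. Any member could be named. From each other list the 3 genes with the largest and the 2 with the smallest absolute log2 change of TAMo against vehicle could be named, and exceptions are stated; 1 gene that this rule names is not reported here. Each result was recomputed under 16 alternatives of pseudocount, filter, trend, scaling, samples and replicate block. No list was tested as a set.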

Additional observations from a re-analysis of the deposited data

How the results depend on the processing

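For TAMo against vehicle and TAN against TAMo, all 42 genes kept their call and direction under the 16 alternatives, and the counts over all genes stayed within 1.5 times. Calls with TAN against vehicle moved. Members called higher numbered 0 with a pseudocount of 0.1 or 0.5 or without a filter on low values. They numbered 1 without a variance trend and 1 with the replicate block. When the 2 groups were fitted alone, 9 were higher and 1 was lower. In the same order, 9.09%, 9.25%, 3.54%, 7.26%, 8.98% and 10.8% of all genes were called higher. In the last of these fits 12.6% of all genes were lower. Without the filter 644 of all genes were higher and 687 lower. Leaving out one library in turn gave 0 to 7 members higher and 0 to 1 lower, and 325 to 1188 of all genes higher and 367 to 1387 lower. The cause was not tested, except that fewer libraries or more low genes entered these fits by construction. Whether replicate numbers pair the samples is not stated. Deviations of same-numbered libraries correlated at 0.057 (TAN and vehicle), 0.024 (TAMo and vehicle) and 0.0078 (TAN and TAMo). These values show no sign of pairing but cannot exclude it, since much of the deviations can be counting noise. For TAN against vehicle single genes were followed only for the 10 with the lowest adjusted p: none changed sign, 17 values lost a call (Cenpf and Ccnb2) and 19 gained one. Over all 42 genes signs did change: 28 to 32 changes were positive across the alternatives, against 30 as reported. TAMo levels under 1 FPKM rest on fewer counted units than the TAN and vehicle levels of the same genes. TAMo replicate 1 had the lowest total of counted units, 21.9 M. Since its unit may differ from that of the other libraries, this does not show that its depth was lower.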
